A study of Mus musculus with 10 samples.

Results

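The 10 transcription factor genes that mark or direct cardiac fibroblasts and were examined here are Tcf21, Tbx20, Wt1, Gata4, Gata6, Hand2, Mef2c, Meox1, Runx1 and Twist1. They were chosen by name, and every region that the deposited annotation assigned to one of these 10 symbols was taken. Of the 10 genes, 9 had regions in every table used, and Hand2 had none in any. The 9 genes held 53 of 74751 regions for H3K9lc, the lactylated form of lysine 9 on histone H3, in the comparison with siHK1. With siHK1 they held 126 of 72990 regions of c-JUN (JUN), 66 of 58633 of SMAD3 and 74 of 68767 of NFATC2. They held 48 of 65853 regions in the H3K9lc comparison with the control library (NC).

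The libraries were made by CUT&Tag, in which an antibody tethers a transposase to chromatin and the DNA cut nearby is sequenced. The cells were primary mouse cardiac fibroblasts. The TGF libraries came from cells given TGF-β, the cytokine that turns fibroblasts into contractile, matrix-secreting myofibroblasts. The siHK1 libraries came from cells in which the glycolytic enzyme hexokinase 1 (HK1) was targeted with an siRNA before TGF-β was added. The NC library came from cells labelled as a control. All cells were cultured primary fibroblasts, and neither the mouse strain, the animals' age, the number of animals per culture nor the siRNA given to the TGF cells is stated in the labels. The comparisons ask whether loss of HK1 alters H3K9lc and the binding of JUN, SMAD3 and NFATC2, and whether TGF-β alters H3K9lc. With 1 library for each condition and antibody there is no spread between replicates, and no test between conditions was run. Intervals are exact 95% binomial intervals that cover counting error only, and differences are between libraries.

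Resident cardiac fibroblasts descend largely from the epicardium, the outer cell layer of the heart. Tcf21 (a bHLH factor) and Wt1 (a zinc finger factor) are active in the epicardium, and Tcf21 remains a marker of resident fibroblasts. Tbx20 (T-box), Gata4 and Gata6 (GATA zinc fingers), Hand2 (bHLH) and Mef2c (MADS box) belong to the gene network of heart development and are also used by fibroblasts. Meox1 (homeobox), Runx1 (Runt domain) and Twist1 (bHLH) are associated with fibroblast activation. JUN is a subunit of AP-1, SMAD3 carries the TGF-β signal from receptor to chromatin, and NFATC2 is a factor that enters the nucleus after calcineurin signalling. Lactylation is a histone modification that draws on lactate, an end product of glycolysis.

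Reads in listed regions ranged from 354599 to 4215447 per library, except for 115572 in NC, and TGF had more of them than siHK1 for each antibody. These are sums over listed regions, not library depths. The members took 0.0677% of the H3K9lc reads in TGF and 0.0726% in siHK1. Their share was 0.179% and 0.167% of the JUN reads, 0.0641% and 0.0763% of the SMAD3 reads and 0.0453% and 0.0767% of the NFATC2 reads. Every member region had a peak called in at least 1 library of its pair, and most regions of each antibody carried a peak in a single library, with the direction of the ratio moving with it. No RNA was measured in these libraries. JUN reads within 1 kb of the start were present at 4 of 8 fibroblast markers (422 reads in all in TGF, 228 in siHK1), at 1 of 5 cardiomyocyte markers (Myh6, 84 and 38), at 4 of 5 endothelial (158 and 90), at 2 of 5 macrophage (180 and 114) and at 1 of 5 smooth muscle markers (8 and 2). The fibroblast markers Dcn, Lum, Col1a1 and Thy1 were at 0, so the labelled cell type could not be checked from these reads, and the part of other cells in the results was not tested. The knockdown of Hk1 itself was not measured in these libraries.

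The regions on which the results turn are shown first, each as the central 300 bases of the listed region. They are read from the forward strand of GRCm38 (RefSeq), with matches to the AP-1 letters TGANTCA and the SMAD letters CAGAC, on either strand, in capitals. The Meox1 pair and the Runx1 intron region were lower in siHK1 with at least 100 reads in TGF, the Twist1 sequence lies at its promoter, the Runx1 upstream region was the H3K9lc region called lower, and the Wt1 region carried all 3 of H3K9lc, JUN and SMAD3.
Meox1 intron, chr11:101885565-101885864, JUN: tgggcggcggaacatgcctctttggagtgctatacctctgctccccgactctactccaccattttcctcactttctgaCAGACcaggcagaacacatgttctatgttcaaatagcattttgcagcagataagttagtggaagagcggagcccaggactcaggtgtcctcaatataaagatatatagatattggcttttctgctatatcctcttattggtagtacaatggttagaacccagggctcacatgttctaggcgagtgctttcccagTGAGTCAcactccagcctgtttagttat
Meox1 downstream, chr11:101873883-101874182, JUN: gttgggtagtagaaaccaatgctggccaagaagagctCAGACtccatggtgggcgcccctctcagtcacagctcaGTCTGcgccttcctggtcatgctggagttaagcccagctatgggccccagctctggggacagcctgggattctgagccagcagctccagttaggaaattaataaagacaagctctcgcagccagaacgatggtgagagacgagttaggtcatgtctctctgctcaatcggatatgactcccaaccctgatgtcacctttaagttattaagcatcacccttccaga
Runx1 intron, chr16:92778189-92778488, JUN: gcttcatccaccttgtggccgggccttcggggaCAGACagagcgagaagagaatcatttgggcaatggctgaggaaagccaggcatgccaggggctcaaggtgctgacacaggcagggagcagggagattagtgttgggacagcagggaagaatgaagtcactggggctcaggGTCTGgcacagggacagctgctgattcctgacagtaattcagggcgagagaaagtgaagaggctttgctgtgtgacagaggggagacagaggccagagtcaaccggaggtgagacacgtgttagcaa
Runx1 upstream, chr16:92864606-92864905, H3K9lc: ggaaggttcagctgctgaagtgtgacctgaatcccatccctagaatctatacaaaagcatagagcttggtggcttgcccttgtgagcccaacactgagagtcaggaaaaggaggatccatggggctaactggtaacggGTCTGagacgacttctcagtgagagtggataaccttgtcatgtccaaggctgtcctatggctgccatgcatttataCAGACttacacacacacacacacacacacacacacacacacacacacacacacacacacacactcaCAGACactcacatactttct
Twist1 promoter, chr12:33956918-33957217, JUN: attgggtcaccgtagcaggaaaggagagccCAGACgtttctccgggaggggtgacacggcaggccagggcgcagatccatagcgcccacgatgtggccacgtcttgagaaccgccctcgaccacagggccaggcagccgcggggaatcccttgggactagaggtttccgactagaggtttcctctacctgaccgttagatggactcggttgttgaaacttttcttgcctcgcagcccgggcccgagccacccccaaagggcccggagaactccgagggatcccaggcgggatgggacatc
Wt1 downstream, chr2:105174730-105175029, H3K9lc: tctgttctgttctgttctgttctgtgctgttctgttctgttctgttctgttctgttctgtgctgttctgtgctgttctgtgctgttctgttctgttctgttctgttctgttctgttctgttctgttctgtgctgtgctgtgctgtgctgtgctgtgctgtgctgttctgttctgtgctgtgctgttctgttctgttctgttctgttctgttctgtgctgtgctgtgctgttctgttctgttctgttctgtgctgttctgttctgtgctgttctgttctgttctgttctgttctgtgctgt
The Meox1 intron window held 1 AP-1 match and 1 CAGAC, the Meox1 downstream window 2 CAGAC, the Runx1 intron window 2 CAGAC, the Runx1 upstream window 3 CAGAC outside its run of CA repeats and the Twist1 window 1 CAGAC. The Wt1 window held no match to either and includes a simple tandem repeat. These are letter matches, not measured sites.

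Summed over its regions, each gene was compared between siHK1 and TGF after both libraries were brought to equal totals. A gene counted as lower or higher when its sums differed at least 2-fold with a mean of at least 10 scaled reads. For H3K9lc, all 9 genes passed the minimum and none differed 2-fold, against 2.08% lower and 1.84% higher among all genes. For JUN, Meox1 alone was lower and none was higher, against 2.32% lower and 1.93% higher. For SMAD3, Gata4 was lower and Wt1 higher, against 8.8% and 18.1%. For NFATC2, Tcf21 and Twist1 were higher and none was lower, against 10.4% and 5.4%. The median log2 ratio over the members was 0.09 for H3K9lc, beside -0.05 over all genes, and -0.03 for JUN, beside -0.01. SMAD3 had a median of 0.43, beside 0.19, and NFATC2 one of 0.74, beside 0.13. The H3K9lc median turned to -0.03 when the best-read region of each gene was left out.

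**Figure D1:**
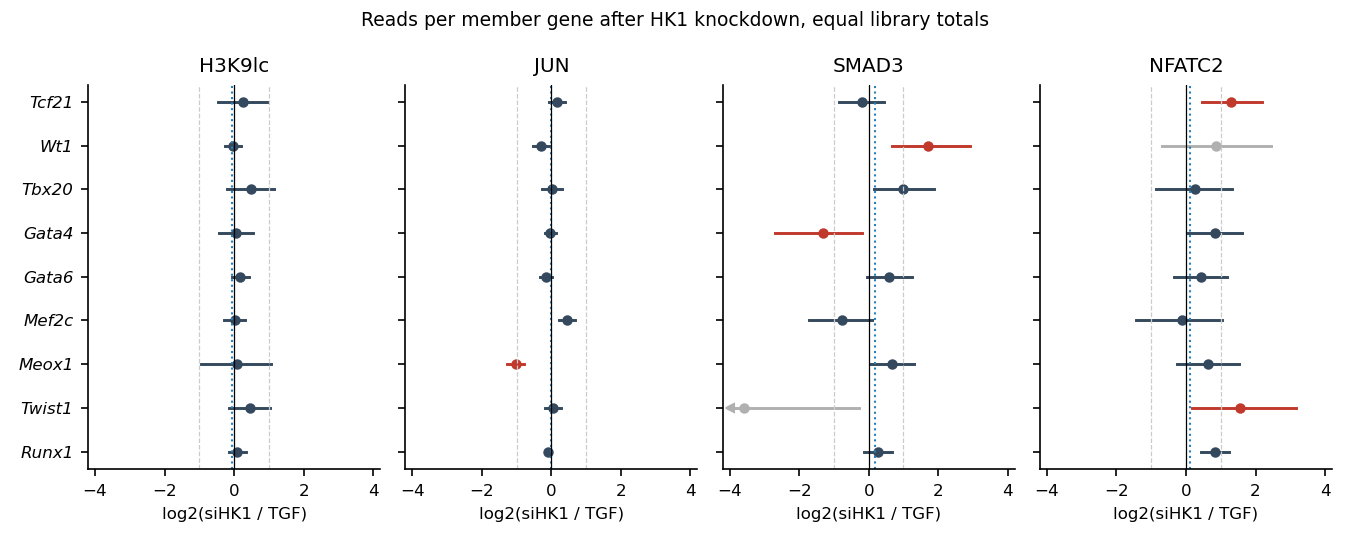
Log2 ratio of summed reads for each gene in the 4 comparisons of siHK1 over TGF (H3K9lc, JUN, SMAD3 and NFATC2) at equal totals, with exact 95% counting intervals as bars. Red points differ at least 2-fold, dark points do not, grey points are under the read minimum, the blue dotted line is the median of all genes, the dashed lines mark 2-fold, and Hand2 had no regions. The Meox1 point for JUN lies at -1.02, while the H3K9lc points for siHK1 over TGF lie between -0.03 and 0.49.

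Meox1 had the lowest JUN ratio of the 9 genes. Its 10 JUN regions held 644 reads in TGF and 171 in siHK1, a log2 ratio of -1.02 (95% interval -1.27 to -0.78), and 2.22% of all genes tested had a ratio at or below it. Of these regions, 4 were called lower. The intronic region shown above (chr11:101885266-101886165, 8.21 kb into the gene) held 206 reads in TGF against 29 in siHK1, at a log2 ratio of -1.92 (-2.55 to -1.37). A second intronic region at 12.5 kb (chr11:101881397-101881890) held 73 and 11 reads, and the ratio was -1.78 (-2.90 to -0.92).

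Beyond the end of Meox1, the region at 19.9 kb from the start (chr11:101873632-101874434) held 111 and 22 reads with a ratio of -1.42 (-2.17 to -0.77). The region at 26.1 kb (chr11:101867515-101868244) held 43 and 7, with a ratio of -1.64 (-3.12 to -0.56). All 4 regions had a peak called in TGF only. Together they held 433 of the 644 TGF reads (67.2%). The 4 regions span from the intron to past the gene's end, with 1 thin region among them, at 23.5 kb, that held 9 and 8 reads. Without its best-read region the Meox1 sum had a ratio of -0.73, under 2-fold. The farthest region, 44.7 kb from the start (chr11:101849253-101849723), held 109 and 50 reads, with a ratio of -0.22 (-0.75 to 0.26). The region nearest to the start, at 1.10 kb, held 8 reads and 1 read and was under the minimum.

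**Figure D2:**
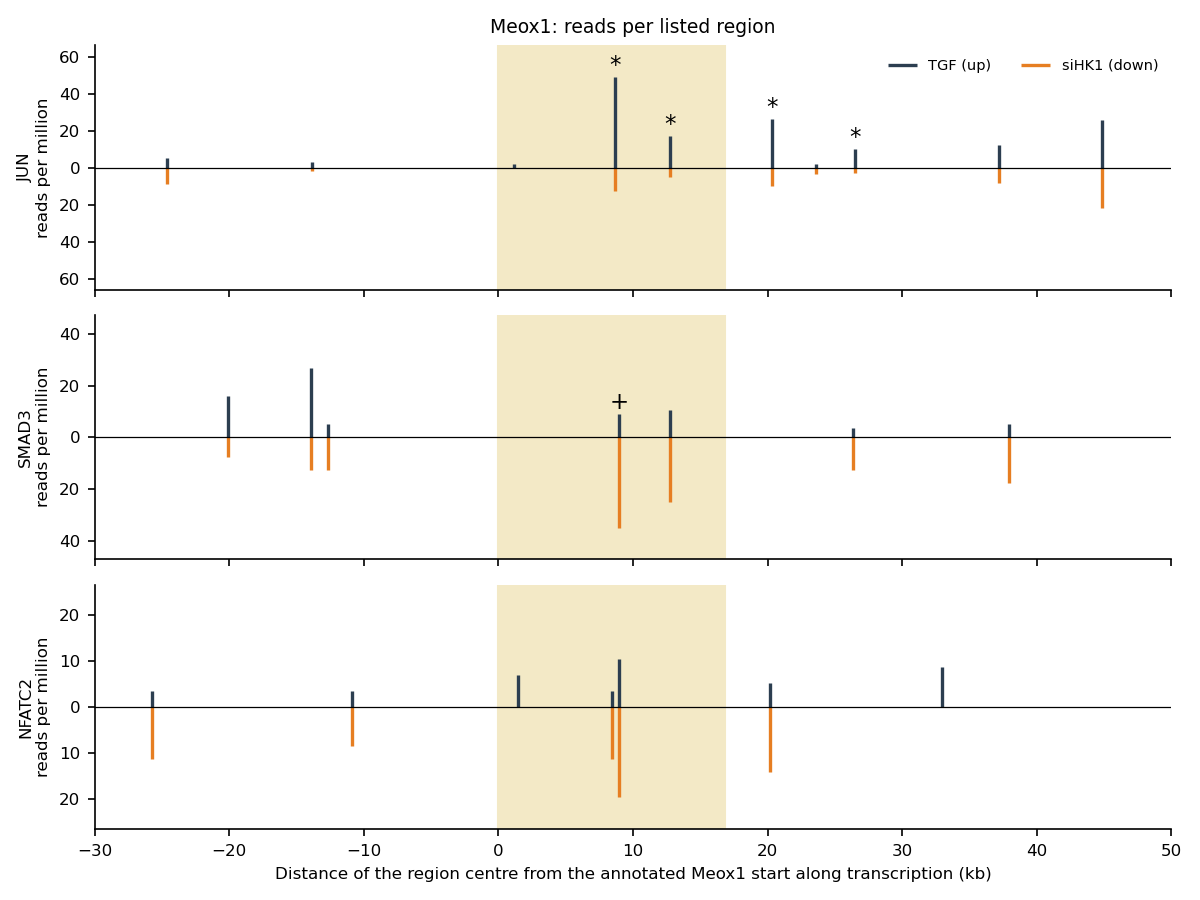
Reads at each listed region of Meox1, scaled to the listed total of each library and drawn upward for TGF and downward for siHK1, against distance from the annotated start in kb along transcription; the shaded span is the annotated gene body, an asterisk marks a region at least 2-fold lower and a plus a region at least 2-fold higher in siHK1. Distances are of region centres. The 4 JUN regions marked lower lie inside the gene body and just past its end, and the SMAD3 region marked higher lies in the best-read of them.

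SMAD3 and NFATC2 reads at Meox1 were few, and the direction was not that of JUN. Over 7 SMAD3 regions there were 43 reads in TGF and 49 in siHK1, a log2 ratio of 0.68 (0.06 to 1.31), which is under 2-fold. The SMAD3 region within the intronic JUN region (chr11:101885266-101885599) held 5 reads in TGF and 14 in siHK1, with a ratio of 1.89 (0.43 to 3.81) and a peak called in siHK1 only. At the same place NFATC2 held 6 and 7 reads. The single H3K9lc region of Meox1, 5.65 kb before the start, held 25 reads in TGF and 15 in siHK1, with a ratio of 0.09 (-0.95 to 1.05). H3K9lc was therefore listed at none of the Meox1 regions where JUN was lower.

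Runx1 had the most regions of any member, with 43 for JUN. The gene as a whole held 3044 JUN reads in TGF and 1544 in siHK1, a log2 ratio of -0.09, but 4 regions were at least 2-fold lower and 1 was higher. The intronic region shown above (chr16:92777848-92778830, 46.9 kb from the nearest annotated start) held 114 and 22 reads, with a ratio of -1.46 (-2.21 to -0.81). Its neighbour at 36.6 kb (chr16:92788361-92789201) held 157 and 40 reads with a ratio of -1.07 (-1.62 to -0.57). Between them, the region at 41.8 kb (chr16:92783473-92783964) held 47 and 12. The fourth, 187 kb upstream (chr16:93013247-93013572), held 30 and 5.

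The best-read Runx1 JUN region, at a promoter (chr16:92823429-92824761), held 516 reads in TGF and 205 in siHK1, with a ratio of -0.44 (-0.68 to -0.20). A region at a second start site (chr16:92697271-92697989) held 101 and 50. Others went the other way: the region at chr16:92620776-92621516, in an intron, held 242 and 190 reads, a ratio of 0.54 (0.26 to 0.82). The JUN region called higher, 35.6 kb upstream (chr16:92861716-92862360), held 12 reads in TGF and 30 in siHK1, with a ratio of 2.18 (1.21 to 3.31). Single Runx1 regions thus had JUN ratios of either sign whose intervals left out 0.

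**Figure D3:**
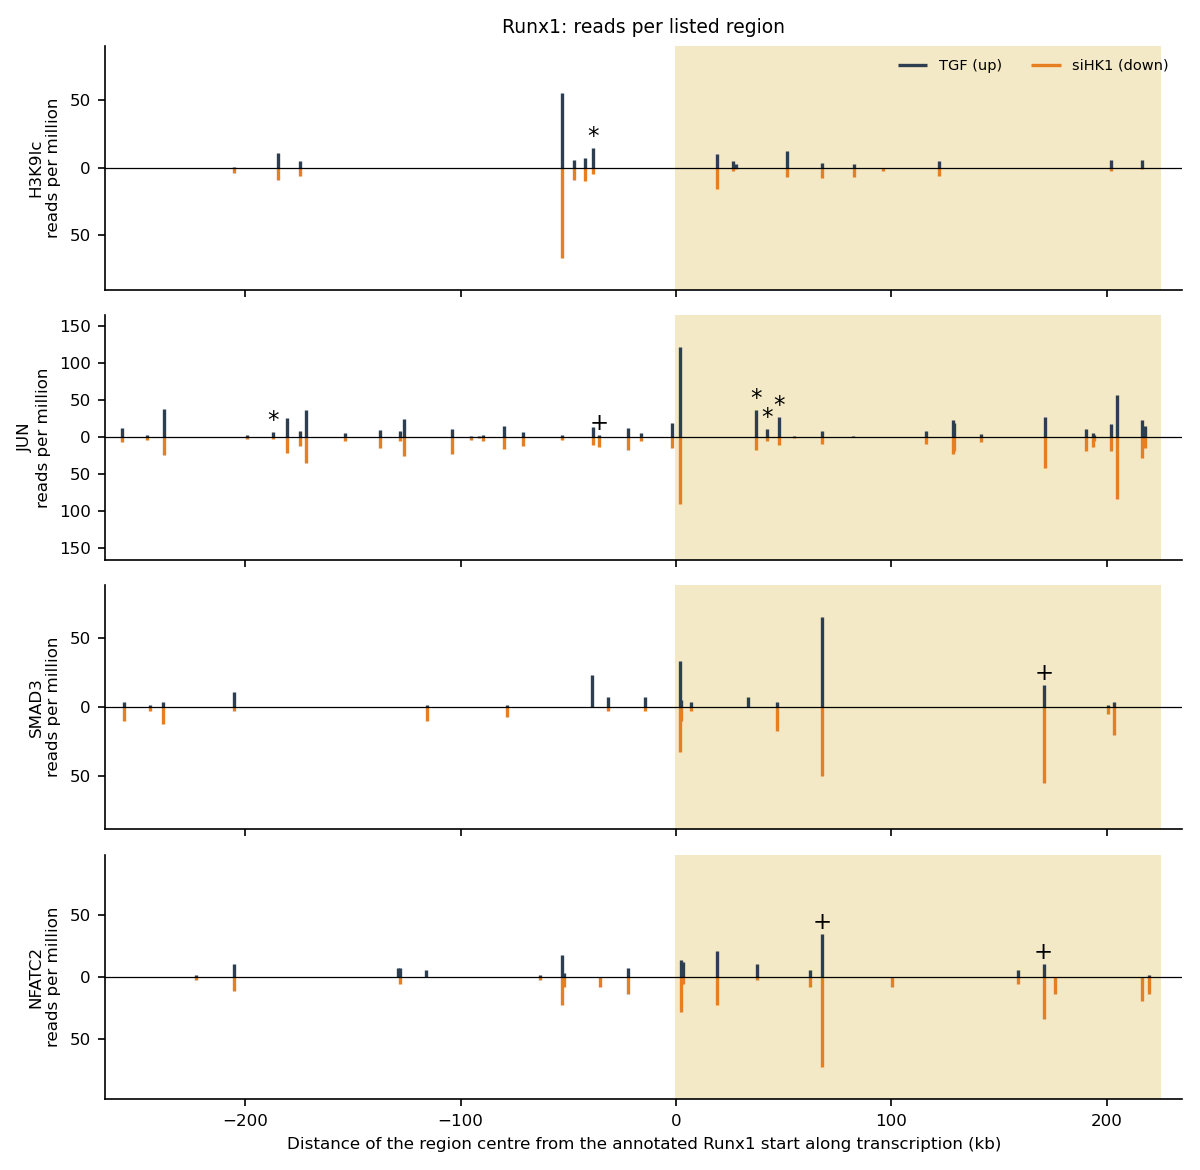
Reads at each listed region of Runx1, scaled to the listed total of each library, TGF upward and siHK1 downward, against distance from the annotated start in kb along transcription, with the annotated gene body shaded, asterisks at regions at least 2-fold lower and plus signs at regions at least 2-fold higher in siHK1. Regions called lower and higher for JUN lie among many that were neither.

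For JUN over all members, 105 of 126 regions had a mean of at least 10 scaled reads. A region counted as lower or higher when it also differed at least 2-fold with an interval that left out equal shares. Of the 105, 12 were lower, against 4.94% of all JUN regions, and 5 were higher, against 3.22%. The 12 lay at Meox1 (4), Runx1 (4), Gata6 (3) and Twist1 (1), and the 5 at Gata6 (2), Mef2c, Runx1 and Tcf21. None lay at Gata4, Tbx20 or Wt1.

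**Figure D4:**
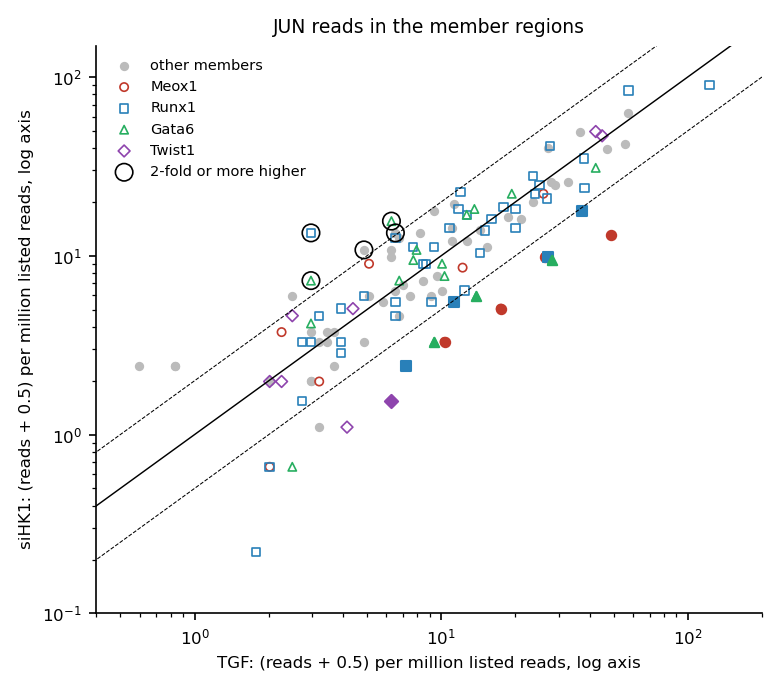
Reads scaled to the listed total of each library in TGF (horizontal, log axis) and siHK1 (vertical, log axis) at each JUN region of the 9 genes. Filled points are the 12 regions at least 2-fold lower in siHK1, points ringed in black the 5 at least 2-fold higher, the diagonal marks equal values and the dashed lines 2-fold.

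At Twist1, JUN reads were lower at the promoter, while its distal regions differed less than 2-fold. The promoter region shown above (chr12:33956751-33957385, 286 bases before the start) held 26 reads in TGF and 3 in siHK1, with a log2 ratio of -2.03 (-4.59 to -0.52). The region over the start itself (chr12:33957570-33957927) held 17 and 2 reads, with a ratio of -1.92 and a mean under the minimum. The distal regions at 118 kb (189 and 106 reads) and 82.3 kb (178 and 112) had ratios of 0.06 and 0.23, so that the gene sum, 455 and 252 reads, gave 0.04.

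At Gata6, 3 distal JUN regions were lower and 2 higher. The lower ones held 118 and 21 reads at 106 kb from the start, 58 and 13 at 103 kb, and 39 and 7 at 264 kb, with ratios of -1.57, -1.22 and -1.50. The higher ones held 26 and 35 reads at 41.7 kb and 12 and 16 at 268 kb. The Gata6 promoter region held 178 and 70 reads, a ratio of -0.45 (-0.87 to -0.05), and the gene sum 822 and 399, a ratio of -0.15. The Gata6 sum covered regions called in either direction.

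The sums of the other members differed less than 2-fold. Gata4 held 915 and 482 reads over 12 regions, a ratio of -0.03. Its best-read region, 36.7 kb upstream (chr14:63308389-63309321), held 240 and 142. The region at its promoter held 198 and 89 (ratio -0.26), and the region at a start site inside the gene 47 and 44 (ratio 0.80, interval 0.17 to 1.42). Wt1, with 561 and 246 reads over 5 regions, had a ratio of -0.30 (-0.52 to -0.08), under 2-fold but with an interval below 0. Its ratio was below 0 in each of its 5 JUN regions. Tbx20 held 269 and 147 reads with a ratio of 0.02, and 137 and 58 at its promoter (ratio -0.34).

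Mef2c stood on the other side, with 394 and 291 JUN reads and a ratio of 0.46 (0.23 to 0.68). Its region at a start site inside the gene (chr13:83652012-83652962) held 153 and 111 reads (ratio 0.43), an intronic region 114 and 91 (0.57), and the region called higher (chr13:83565311-83566062) 27 and 30 (1.04, interval 0.24 to 1.85). Tcf21 held 438 and 265 reads over 17 regions, a ratio of 0.17, with 40 and 17 at its promoter and 78 and 37 at its best-read region 137 kb upstream. The Tcf21 region called higher, 145 kb upstream (chr10:22964849-22965605), held 20 and 24 reads. The intervals of Mef2c and Meox1 lie on opposite sides of 0.

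The level of JUN per kb of listed region in TGF was highest at Wt1, with 188 reads per kb (95% Poisson interval 173 to 204). Runx1 (132), Meox1 (131) and Gata4 (125) followed, with intervals that overlapped between neighbours. Next came Twist1 (98.3), Gata6 (93.0), Tbx20 (86.5), Mef2c (70.7) and Tcf21 (68.6), where neighbours again overlapped, while Gata4 and Twist1 did not. These intervals cover counting error in 1 library and not the spread between cultures. Of the member JUN regions 47.6% lay more than 50 kb from the annotated start, beside 23.8% of all JUN regions, and 28 of these 60 were assigned to Runx1, so a region's assignment to the nearest gene is uncertain for many.

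SMAD3 was thinly read at these genes: 8 of 66 member regions reached the minimum. Of the 8, none was lower and 4 were higher, beside 6.83% and 18.7% of all SMAD3 regions. The 4 lay at Meox1 (above), Tbx20, Wt1 and Runx1, and 3 of them had a peak in siHK1 only. The SMAD3 region over the Tbx20 start (chr9:24774179-24774746) held 11 reads in TGF and 22 in siHK1, with a ratio of 1.46 (0.39 to 2.69) and a peak in both libraries. Summed over its 4 regions Tbx20 held 21 and 30 reads, just under 2-fold (interval of the log2 ratio 0.16 to 1.89).

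The Wt1 SMAD3 region (chr2:105174447-105174876, 11.6 kb from the nearest annotated start) held 4 reads in TGF and 17 in siHK1, with a ratio of 2.45 (0.97 to 4.61). The Wt1 sum was 11 and 26 reads, a ratio of 1.70 (0.67 to 2.90). The Runx1 region (chr16:92654933-92655774, intronic) held 9 and 22 reads with a ratio of 1.74 (0.61 to 3.09). A JUN region there held 116 and 93 reads (0.57) and an NFATC2 region 6 and 12. So all 3 factors had more reads in siHK1 than equal totals would give at this Runx1 intron.

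Gata4 was the member at least 2-fold lower for SMAD3, with 29 reads in TGF against 8 in siHK1, at a ratio of -1.30 (-2.70 to -0.20). This rests on 2 thin regions with 9 reads in TGF and 0 in siHK1 (chr14:63211870-63212204 and chr14:63309232-63309454). Each was 2.13-fold lower with 0 set to the floor of 3 reads, and the counting interval of such a log2 ratio reached up to -0.49. Without their best-read regions Gata4 stood at -0.78 and Wt1 at 0.84, both under 2-fold. The only SMAD3 region of Twist1 was under the gene minimum, as TGF had 8 reads there against 0 in siHK1. Setting 0 to the floor of 3 reads made it 1.89-fold lower, but the log2 counting interval reached up to -0.28. Mef2c held 39 and 16 reads (-0.76), Tcf21 55 and 34 (-0.19), Gata6 42 and 45 (0.59) and Runx1 113 and 97 (0.28). The best-read SMAD3 regions were at Runx1 (37 and 20 reads, chr16:92757978-92758703) and Tcf21 (32 and 12, chr10:22849607-22850165), with ratios of -0.38 and -0.88.

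Peak calls moved with the direction for all 4 antibodies. The calls and the ratios come from the same reads of the same pair of libraries, so this link is not a separate result. Of the 66 SMAD3 member regions, 28 had a peak in TGF only, with a median log2 ratio of -1.23 (-1.38 over all such regions), 33 in siHK1 only (1.34, beside 1.41) and 5 in both (-0.04, beside 0.09). Of the 74 NFATC2 regions, 24 had a peak in TGF only (-1.03, beside -1.42), 47 in siHK1 only (1.44, beside 1.55) and 3 in both (0.99, beside 0.03). The siHK1-only regions made up 63.5% of the NFATC2 regions of the members and 54.0% of all NFATC2 regions. Of the 126 JUN regions, 51 had a peak in TGF only (-0.55, beside -0.57), among them the 4 lower Meox1 regions, 16 in siHK1 only (0.97, beside 1.05) and 59 in both (0.04, beside 0.08). Of the 53 H3K9lc regions, 25 had a peak in TGF only (-0.56, beside -0.49), 15 in siHK1 only (1.09, beside 1.05) and 13 in both (0.29, beside 0.08). The part of peak calling in these values was not tested.

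NFATC2 sums had a ratio above 0 at 7 of the 8 genes with enough reads, Mef2c being the exception, beside 57.2% of all genes. Tcf21 held 21 reads in TGF and 32 in siHK1, a ratio of 1.30 (0.47 to 2.17), and Twist1 7 and 13, a ratio of 1.55 (0.16 to 3.16). Twist1 fell under the minimum without its best-read region or with regions of at least 200 bp only, and with no scaling Tcf21 stood at 0.60 and Twist1 at 0.85, both under 2-fold. Runx1, with 101 and 111 reads over 22 regions, had a ratio of 0.84 (0.43 to 1.24), which is under 2-fold. Gata4 (29 and 32 reads), Meox1 (24 and 23) and Gata6 (34 and 28) had ratios of 0.84, 0.64 and 0.42, Tbx20 (19 and 14) 0.27 and Mef2c (18 and 10) -0.12. Wt1, with 8 and 9 reads, was under the minimum.

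Of the 74 NFATC2 regions of these genes, 4 reached the minimum, and 2 were higher and none lower, beside 4.03% and 4.88% of all NFATC2 regions. Both lay in introns of Runx1. One (chr16:92758080-92758761) held 20 reads in TGF and 26 in siHK1, with a ratio of 1.07 and an interval from 0.18, where SMAD3 held 37 and 20, JUN 35 and 20 and H3K9lc 9 and 11. The other was the region at chr16:92655203-92655726 named above (6 and 12 reads, ratio 1.64, interval 0.17 to 3.40). At the Tcf21 region of most NFATC2 reads (chr10:22874759-22875265) there were 10 and 13.

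At equal totals, H3K9lc differed little between siHK1 and TGF at these genes. Equal totals hide a change common to all regions. With no scaling the member median was -0.72, beside -0.87 over all genes. The gene sums had ratios from -0.03 for Wt1 (424 reads in TGF, 237 in siHK1) to 0.49 for Tbx20 (44 and 35), and every interval included 0. Gata6 held 368 and 237 reads (0.18), Runx1 379 and 230 (0.09), Mef2c 249 and 144 (0.02), Gata4 96 and 57 in its single region (0.06), Twist1 58 and 45 (0.45) and Tcf21 44 and 30 (0.27). Of 53 regions, 35 reached the minimum, 1 was lower and none higher, beside 2.77% and 2.33% of all H3K9lc regions. That one is the Runx1 region shown above (chr16:92864374-92865138, 38.2 kb upstream and within the body of the non-coding gene Gm49723), where 37 reads in TGF stood against 7 in siHK1, at a ratio of -1.51 (-3.00 to -0.41). There JUN held 60 and 23 reads (-0.47, interval -1.25 to 0.22), and an overlapping SMAD3 region (chr16:92864980-92865207) held 13 and 0. That was 3.07-fold lower when 0 is set to the floor of 3 reads, while the counting interval of its log2 ratio reached up to -1.11.

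The best-read H3K9lc region held 78.5% of the reads at Wt1, 63.0% at Gata6 and 38.1% at Runx1, and Gata4 and Meox1 had 1 region each. The Wt1 region shown above (chr2:105174449-105175311) held 333 TGF reads against 186 in siHK1, and the Gata6 region 230 kb from the start held 223 and 158, or 820 reads per kb in TGF. Runx1 had a region 52.7 kb upstream (chr16:92878868-92879720) with 137 and 95 reads, and Gata4 1 region 8.58 kb upstream (chr14:63280268-63281112). Per kb of listed region, Wt1 had 155 reads in TGF (interval 140 to 170), Gata4 114 and Gata6 111, and these last did not differ beyond counting error. Mef2c (55.2), Runx1 (48.6), Twist1 (47.7), Tcf21 (31.4), Meox1 (28.7) and Tbx20 (25.9) followed, with overlapping intervals between neighbours. Few H3K9lc regions were at promoters: 3 of 53 lay within 3 kb of a start (5.66%, beside 6.78% of all), at Wt1 (13 and 10 reads, and 18 and 12) and Tbx20 (13 and 3).

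Most of the best-read H3K9lc regions lay in repeats, which was not particular to the members. Of the H3K9lc regions that reached the minimum, 62.9% at the members and 62.8% of all were masked over more than 50% of their length. Soft-masked repeat sequence made up a median of 65.2% of the member H3K9lc regions, beside 61.2% of all H3K9lc regions, and 8.68% of the member JUN regions, beside 8.99%. An uninterrupted tandem run of more than 30 bases was found in 9 of the 53 H3K9lc regions (17.0%, beside 4.99% of all), 5 of them at Runx1, and in 16 of 126 JUN regions (12.7%, beside 7.12%). The run was 409 bases long at the Gata4 region, 59 at the Wt1 region, 56 at the Runx1 region called lower and 36 at the Runx1 region of most reads. The best-read regions of Mef2c, Twist1 and Tcf21 were masked over 100% of their length. The Gata6 region with 223 reads was an exception, with 8.82% masked. None of the 12 lower JUN regions held such a run, the longest being 16 bases, and at most 9.15% of their length was masked (5.22% at the intronic Meox1 region), while 2 of the 5 higher JUN regions held one, at Mef2c and Runx1. For SMAD3, 3 of the 8 member regions that reached the minimum held one (37.5%, beside 16.1% of all such regions), among them the Wt1 and Runx1 regions called higher. For NFATC2, all 4 member regions that reached the minimum, the 2 called higher included, were masked over more than 50% of their length, beside 45.3% of all such regions. The part of read mapping in repeats was not tested, and this measure was chosen after the values had been seen.

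**Figure D5:**
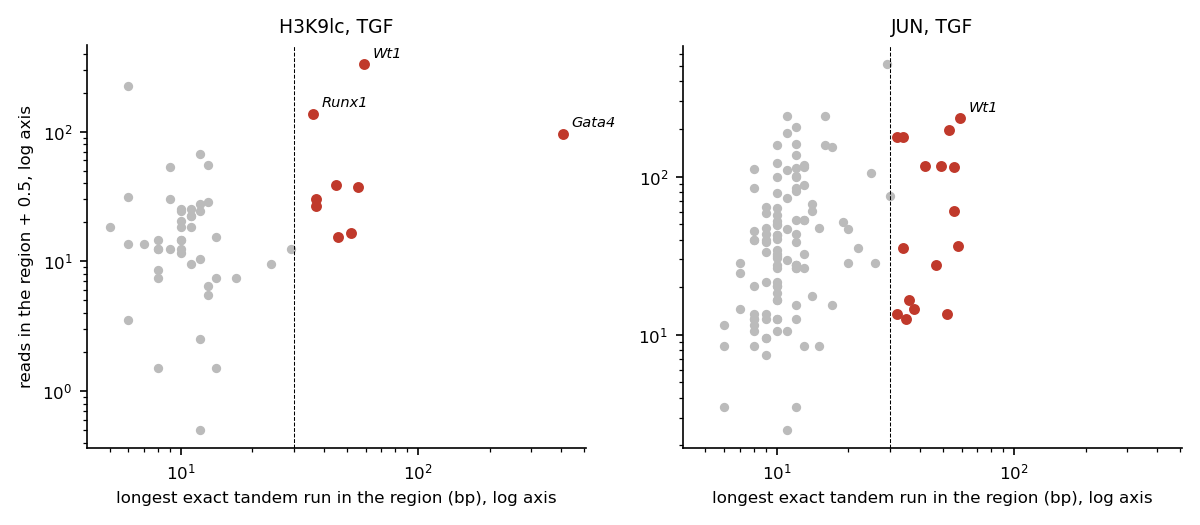
Reads in the TGF library plus 0.5 (vertical, log axis) against the longest uninterrupted tandem run (horizontal, bases, log axis) for each member region of H3K9lc and JUN; red points have a run above 30 bases. The best-read H3K9lc region, at Wt1, carries a run of 59 bases and the longest run, 409 bases, is at Gata4.

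H3K9lc in TGF was compared with NC, which held 115572 reads in listed regions and 0 reads at 18 of the 48 member regions (37.5%, beside 45.3% of all). The listed reads do not give the depth of NC. At equal totals the median log2 ratio over the members was -0.11, beside 0.12 over all genes. Of the genes Tbx20, with 4 reads in NC and 35 in TGF, was the only one at least 2-fold lower in TGF (-1.34, interval -2.68 to 0.76) and none was higher, beside 12.5% and 12.8% of all genes; the interval includes 0. Scaled on regions with peaks in both libraries, Tbx20 stood at -0.78, under 2-fold, and within 3 kb of a start at 0.43, with 0 reads in NC. Wt1 held 23 and 394 reads (-0.25), Gata6 14 and 349 (0.27), Runx1 16 and 354 (0.10) and Gata4 4 and 92 (0.04). Mef2c held 6 and 248, a ratio of 0.93, Tcf21 4 and 48 (-0.89), Twist1 2 and 27 (-0.86) and Meox1 0 and 18, under the minimum.

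Of the 48 regions, 20 reached the minimum, 3 were lower and none higher in TGF, beside 6.18% and 0.839% of all regions. The 3 had 4 and 19 reads (Wt1 promoter, chr2:105127287-105127843), 2 and 3 (Wt1, chr2:105143212-105143494) and 2 and 3 (Tbx20, chr9:24867122-24867526), so that each rests on 2 to 4 NC reads. The Runx1 region that was lower in siHK1 held 0 reads in NC and 37 in TGF. The Mef2c region 82.7 kb upstream (chr13:83420884-83421370) held 0 in NC and 51 in TGF, and the Wt1 region of most reads 13 and 333 (0.30, interval -0.44 to 1.28). The TGF library is the same in both H3K9lc comparisons, so their values at a region are not independent.

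Member H3K9lc regions overlapped regions of the other antibodies at 11 of 53 (20.8%), beside 12.3% of all H3K9lc regions. Runx1 carried this share, with 9 of its 17 regions, and the other genes had 2 of 36 (5.56%). By antibody, 9 overlapped JUN (17.0%, beside 5.92%), 5 SMAD3 (9.43%, beside 6.50%) and 6 NFATC2 (11.3%, beside 6.58%), of which 7, 3 and 5 lay at Runx1. At the Wt1 region all of H3K9lc (333 and 186 reads), JUN (234 and 95, ratio -0.40) and SMAD3 (4 and 17) were listed. The Tbx20 promoter was listed for all 4 antibodies, where H3K9lc held 13 and 3 reads, JUN 137 and 58, SMAD3 11 and 22, and NFATC2 5 and 3 in one region and 4 and 5 in another. JUN and SMAD3 regions of the members overlapped in 19 pairs, and JUN and NFATC2 in 23. The share over all regions was not taken for these pairs, so the counts do not set the members apart.

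The letters of the AP-1 site were about as frequent at the members as elsewhere. TGANTCA was found in the central 300 bases of 51 of the 126 member JUN regions (40.5%), beside 39.8% of all JUN regions. It was in 4 of 10 Meox1 regions and in 22 of 43 Runx1 regions. It was in 4 of the 12 lower member regions (33.3%), beside 42.1% of all lower JUN regions, and in 2 of the 5 higher ones. CAGAC was in 79 of the 126 (62.7%, beside 58.2%), in all 12 of the lower regions, beside 73.1% of all lower JUN regions, and in 3 of the 5 higher ones, beside 49.3% of all higher JUN regions. A match is a description of the letters and was not tied to binding.

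Hand2 (chr8:57320983-57324633) had no region of its own, as regions near it were assigned to its neighbours. Within 50 kb of Hand2 there were 6 listed regions, 5 for JUN assigned to Hdnr and 1 for SMAD3 assigned to Hand2os1, both non-coding neighbours of Hand2. The JUN region at 7.02 kb held 68 reads in TGF and 30 in siHK1, and that at 3.66 kb 15 and 15. The SMAD3 region, at 36.2 kb, held 13 and 2.

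Other transcription factor genes were set beside the members as lists of 20 family paralogs and 25 further mesenchymal or cardiac factors. For JUN none of 17 paralogs and none of 23 further factors with enough reads differed 2-fold, beside 2.32% of all genes lower and 1.93% higher. Their medians were -0.06 and 0.04. For H3K9lc, Twist2 alone among 16 paralogs was lower and none of 14 further factors differed, beside 2.08% of all genes lower and 1.84% higher. For SMAD3, Mef2d, Runx3 and Twist2 among 12 paralogs and Snai1 and Zeb1 among 14 further factors were higher, beside 18.1% of all genes. Their medians were 0.56 and 0.51, beside 0.43 for the members. For NFATC2, Mef2a was higher and Msc lower among 9, Nkx2-5 higher and Prrx2 lower among 16, beside 10.4% of all genes higher and 5.4% lower. Their medians were 0.0005 and 0.37, beside 0.74 for the members. In TGF over NC, Runx2 was higher and Mef2d lower among 14 paralogs, and Zeb1 higher and Snai1 lower among 15 further factors. Of all genes, 12.8% were higher and 12.5% lower.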

How the data were processed

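H3K9lc, JUN, SMAD3 and NFATC2 were profiled by CUT&Tag in mouse cardiac fibroblasts, and 9 of 10 libraries were used, each grouped by its labels; the library whose labels give no antibody was left out. NC was taken as H3K9lc because its description names a table of that mark. As deposited, each table gives the raw read counts of each region in both libraries and, as 0 or 1, whether a peak was called, with regions merged by the authors over both libraries and annotated to the nearest gene. The study's methods name Bowtie2, MACS2 and a DNA spike-in, and the submitters' processing notes name BWA 0.7.12. Spike-in reads were not used here, so a change common to all regions cannot be seen. The methods name GRCm39 and the notes mm10. Of 49132 transcripts in the tables, 48676 were found in GENCODE vM21 and all 48676 matched its GRCm38 positions, so coordinates are on GRCm38. The tables also hold the authors' normalized values, fold changes, p-values and calls, which were not used. Another 4 columns of values belong to no sample used here.

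Counts were summed per gene, and log2 ratios of (count + 0.5) were taken at equal totals over the listed regions, with Clopper-Pearson 95% intervals. PCR copies were counted as reads, so intervals cover counting error only. A fold against 0 reads used a floor of 3. The ratios and intervals were checked on simulated Poisson counts. That is the counting model that the intervals assume, so the check does not cover PCR copies or the spread between cultures. The 9 genes with regions are named in each table, with the best-read region, the region nearest to the start and the regions called. The members and lists were chosen with earlier results of these data known, as were the repeat and motif counts. Alternatives were other scalings, no scaling, a pseudocount of 1, regions within 3 kb of a start, regions of at least 200 bp, leaving out each gene's best-read region, and other minimums. Python 3.11.15, numpy 2.4.6, pandas 2.3.3, scipy 1.17.1 and matplotlib 3.10.9 were used.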

Additional observations from a re-analysis of the deposited data

Results flagged for a closer look

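At the intronic Meox1 region, the JUN and SMAD3 ratios of siHK1 over TGF had opposite signs. JUN held 206 reads in TGF and 29 in siHK1 (-1.92), SMAD3 in the same place 5 and 14 (1.89), and the difference of both log2 ratios was -3.81. This stood out because the siHK1 and TGF libraries differed in opposite directions for 2 antibodies. The pair was picked by this rule from all overlapping pairs of member regions. Of all regions that reached the minimum, 18.7% were higher for SMAD3 and 4.94% lower for JUN. With 1 library per condition the difference was not tested. The JUN peak was called in TGF only and the SMAD3 peak in siHK1 only, and the part of peak calling was not tested.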

How the results depend on the processing

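No paired analysis was possible because there was 1 library of each kind, which also leaves no replicate to omit. Of 289 alternative values of single genes, 243 stayed within the counting interval, 44 moved beyond it, 26 of them with no scaling, and 2 called values (both Tbx20 in TGF over NC) changed sign. With no scaling all ratios of a comparison shift by 1 amount, down for siHK1 over TGF since TGF had more listed reads: the member median became -0.72 for H3K9lc and -0.92 for JUN, the genes differing 2-fold numbered 3 for JUN (Gata6, Meox1 and Wt1, beside 38.0% of all genes lower), 3 for SMAD3 (22.3% lower and 6.48% higher) and 0 for NFATC2, and in TGF over NC the median became 4.22 with 8 genes (97.03% of all genes higher), Tbx20 turning to 2.98. Scaling on regions with peaks in both libraries shifted all ratios by -0.07 for H3K9lc and JUN, -0.08 for SMAD3 and 0.57 in TGF over NC. It gave an H3K9lc median of 0.019 and 1 gene in TGF over NC, Mef2c higher in place of Tbx20 lower (beside 32.7% of all genes higher and 7.32% lower). It also moved the share of lower genes among all genes that differed 2-fold (53.1% for H3K9lc, 54.6% for JUN and 49.3% in TGF over NC) to 65.8%, 65.9% and 18.3%. Equal totals without regions of more than 1000 reads, an alternative added after seeing the data, gave shares of 42.4% for H3K9lc and 69.97% in TGF over NC. It gave 3 member genes in TGF over NC, beside 17.9% of all genes lower and 7.67% higher. Without the best-read region of each gene the H3K9lc median became -0.028. For JUN no member differed 2-fold, beside 3.12% of all genes lower and 2.14% higher. NFATC2 had 1 (Tcf21, not Twist1), beside 4.92% lower and 15.1% higher. SMAD3 had 2, Mef2c lower and Meox1 higher, in place of Gata4 (-0.78) and Wt1 (0.84), beside 11.7% lower and 15.4% higher. TGF over NC had 4, beside 15.2% lower and 11.5% higher. Within 3 kb of a start, the genes differing 2-fold numbered 1 for SMAD3 (Tbx20), beside 39.8% of all genes higher and 2.50% lower. NFATC2 had 0, beside 10.6% higher and 4.79% lower. JUN kept 1 gene, but it was Twist1, beside 3.41% lower and 2.77% higher. The median in TGF over NC was -2.21, and Tbx20 there turned to 0.43, a value against 0 NC reads that rests on the pseudocount. Using only regions that reach the minimum gave 3 of the 5 genes left for SMAD3 (Meox1, Tbx20 and Wt1), beside 24.9% of all genes higher and 7.89% lower. It gave 1 for NFATC2 (Tcf21), beside 6.41% higher and 6.73% lower, and 3 in TGF over NC, beside 7.61% higher and 18.5% lower. With it, 6 of 35 H3K9lc regions were shared with another antibody (17.1%, beside 7.06% of all) in place of 11 of 53. No minimum on genes gave 3 for SMAD3, beside 18.2% of all genes lower and 25.8% higher. Regions of at least 200 bp gave 1 for NFATC2, beside 7.29% lower and 8.38% higher. A pseudocount of 1 gave 3 in TGF over NC, beside 15.5% lower and 8.53% higher. Where not stated, the cause was not tested. Few reads per region limit SMAD3, NFATC2 and NC most: 8 of 66, 4 of 74 and 20 of 48 member regions reached the minimum.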
